A study of Mus musculus with 40 samples.

Results

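The bifunctional molecule, an anti-PD-L1 antibody fused to a TGF-β trap, was compared with its trap control, which carries the same trap on a mutated antibody arm that lacks PD-L1 binding. The comparison covers 14 of the 40 EMT-6 tumors of the series, 10 given the bifunctional molecule (C0479 to C0488) and 4 given the trap control (C0465 to C0468). These libraries were chosen by label and by a share of 7SL and mitochondrial ribosomal RNA under 25% of counts, and the other 6 trap control libraries, at 29.7% to 62.3%, were left out. EMT-6 is a mouse mammary carcinoma line. Cells were placed in the mammary pad of Balb/C females of 8 to 12 weeks and left to grow for 20 days, to about 400 mm3 on average. Each mouse of both groups then got 492 µg intravenously on days 0, 1 and 2, and its tumor was collected on day 6. Anti-PD-L1 alone was given at 400 µg to another 10 mice, used below as a common point. Each group thus measures 1 cell line in 1 host strain at 1 dose and 1 time, and whole tumors were sequenced with the stroma and immune cells they held.

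PD-L1 (Cd274) on tumor and myeloid cells binds PD-1 on T cells and restrains them, and antibodies to it release that brake. TGF-β is held latent in the matrix and signals through a pair of receptor chains to fibroblasts, T cells and macrophages, and a soluble receptor trap takes it up before it reaches them. Because both molecules carry the trap, the comparison asks what PD-L1 binding adds to it. The groups differ also in their runs of sample numbers, and treatment and sample run cannot be told apart.

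Total expected counts were 22793662 to 27658263 in bifunctional libraries and 21987948 to 26389345 in trap control libraries, and structural RNA took 13.3% to 18% of them in bifunctional and 12.9% to 17.4% in trap control libraries. Keratin markers of the tumor cells were present in all 14 libraries, with 56.4 to 126 TPM of Krt8 and 2.54 to 19.9 TPM of Krt18. Vimentin had 645 to 1155 TPM, and its source among tumor, stroma and immune cells was not tested. Bifunctional libraries C0479 and C0484 stood apart by tissue from around the tumor. The 12 skeletal muscle genes summed to 2388 CPM in C0479 and 4824 CPM in C0484, against at most 184 CPM in the other bifunctional libraries and 2.85 to 406 CPM in the trap control ones, where no marker was at 0 in every library. The 8 keratinocyte genes summed to 2996 CPM in C0479, against 7.19 to 43.3 CPM in trap control tumors. Values without both libraries stand beside many of the results below.

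No gene passed the threshold of 0.05 on the adjusted p of edgeR's quasi-likelihood test. Of 15479 genes tested, 0 or 0.0% were called, and the smallest adjusted p was 0.212. At an unadjusted p under 0.05, 780 genes (5.04%) were higher and 1170 (7.56%) were lower in bifunctional tumors. DESeq2's Wald test on the same libraries called 12 genes higher and 53 lower, 0.786% of the 8271 genes to which it gave an adjusted p. Each sample is labelled as a tumor from a mouse, so p-values measure the spread between these tumors.

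The intervals bound how large a difference could be. The median fold over all genes was 0.03 on the log2 scale, with quartiles of -0.12 and 0.27, and 55.4% of all genes had folds above 0. Genes of a list share the same 14 libraries, so the counts of folds above or below 0 given below are not independent. The 95% interval lay inside a 2-fold change in either direction for 11811 genes (76.3%) and inside 1.5-fold for 8540 (55.2%). Its median half-width was 0.25 on the log2 scale for genes over 100 CPM, and 0.94 for genes under 1 CPM. Among 15 T cell genes, which were expressed at low levels, 3 had an interval inside a 2-fold change. The groups did not overlap, all 10 libraries on one side of all 4, for 32 genes that were higher (0.207%) and 90 that were lower (0.581%).

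**Figure D1:**
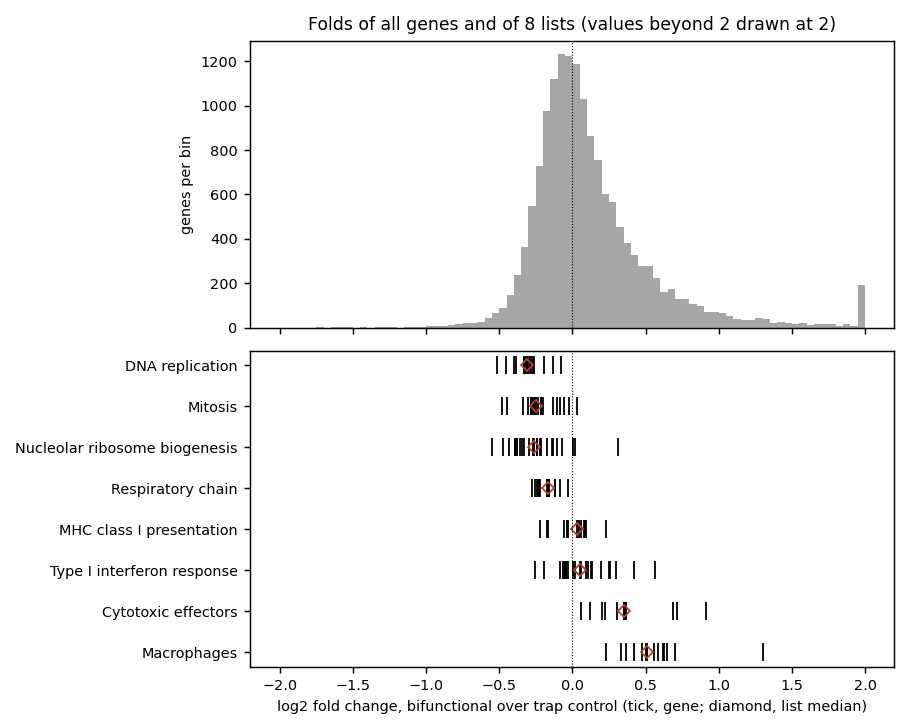
The upper panel counts genes by log2 fold change, bifunctional over trap control, in bins of 0.05, and the lower panel shows the members of 8 gene lists (ticks) with the list median (diamond). All 19 DNA replication genes lie below 0 and all 15 macrophage genes above it, while MHC class I and type I interferon genes straddle 0.

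No difference in the molecules' own targets passed the test. Cd274, the gene of PD-L1 (chr19:29367455-29388095 in mm10), had 8.62 CPM in the lowest, 14.2 in the median and 36.7 in the highest bifunctional library, against 31.2, 11.4, 9.57 and 10.7 CPM in trap control libraries C0465 to C0468. The groups overlapped, and 1 trap control tumor lay far above the other 3. Its log2 fold change was 0.07 (95% interval -0.78 to 0.92, adjusted p = 0.935), and 0.64 without that tumor, C0465. Pdcd1, the gene of PD-1, ran from 0.403 to 1.15 CPM with a median of 0.773 in bifunctional tumors, against 0.825, 0.539, 0.454 and 0.638 CPM in trap control tumors, a fold of 0.39 (-0.25 to 1.04). The second PD-1 ligand, Pdcd1lg2, stayed below 1 CPM in every library, with a fold of 0.07 (-0.68 to 0.83). Of 11 PD-1 and B7 family genes, 10 had folds above 0, with a list median of 0.32. Low-level genes as a class had folds above 0 too. Their median was 0.34 for all genes under 1 CPM and 0.19 for those at 1 to 10 CPM. These medians are no neutral reference, because the filter asked for enough reads in as many libraries as the smaller group holds. The larger bifunctional group reaches that number more easily. On log2(TPM + 1) the list stood at -0.016 relative to the median of all genes. That scale shrinks the folds of low genes, so this value cannot tell if the list rose more than other genes. Vsir, the inhibitory receptor VISTA, was the member with the smallest p. It had a lowest, median and highest level of 60.3, 78.0 and 119 CPM in bifunctional tumors, against 70.9, 57.8, 52.3 and 59.9 CPM in trap control tumors. Its fold was 0.47 (0.11 to 0.83, adjusted p = 0.335), and 7 of 10 bifunctional libraries lay above every trap control one.

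For the TGF-β ligands the folds were near 0, with intervals that still allow moderate differences. Tgfb1 had a fold of 0.03 (-0.43 to 0.50), Tgfb2 of 0.05 (-0.63 to 0.74) and Tgfb3 of 0.14 (-0.50 to 0.78). The signalling receptor Tgfbr2 was the most narrowly bounded of these genes. Its levels were 368 to 569 CPM with a median of 446 in bifunctional tumors, against 443.6, 473.8, 442.6 and 457.2 CPM in trap control tumors, a fold of 0.02 (-0.21 to 0.26). Its partner Tgfbr1 had a fold of 0.31 (-0.07 to 0.69). Lrrc32, the surface anchor GARP that holds latent TGF-β, had a fold of 0.59 (-0.04 to 1.22), or 0.29 without C0479 and C0484, and Thbs1, thrombospondin 1, which can activate it, one of -0.06 (-0.77 to 0.66).

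Genes known to respond to TGF-β showed no common displacement. Of 15, 10 had folds above 0, their median was 0.12, and the list score, the mean log2(CPM + 1) of the members in a library, differed by 0.05 (-0.25 to 0.35, bifunctional minus trap control). Tgfbi, a secreted matrix protein named for its induction by TGF-β, had 164, 272 and 327 CPM in the lowest, median and highest bifunctional library, against 187, 178, 209 and 229 CPM in trap control libraries, a fold of 0.37 (0.02 to 0.72, adjusted p = 0.382). For the main collagen chain Col1a1 the fold was 0.42 (-0.43 to 1.26), and 0.10 without C0479 and C0484. Across 27 collagen and matrix genes 24 had folds above 0, with a median of 0.33, or 0.13 without the same libraries. Vcan, the proteoglycan versican, was the only one at an unadjusted p under 0.05, against 5.04% of all genes in that direction. Its fold was 0.40 (0.01 to 0.79). Among 11 fibroblast genes 10 had folds above 0, with a median of 0.68 and a score difference of 0.47 (-0.20 to 1.17). C0479 and C0484 had the highest fibroblast scores. Without them the median was 0.29 and the score difference 0.22 (-0.23 to 0.66). The receptor Pdgfra, the member with the smallest p, had 140, 178 and 364 CPM at its lowest, median and highest in bifunctional tumors. It had 155, 119, 111 and 128 CPM in trap control tumors. Its fold was 0.69 (0.19 to 1.19, adjusted p = 0.324) and 0.50 without C0479 and C0484.

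**Figure D2:**
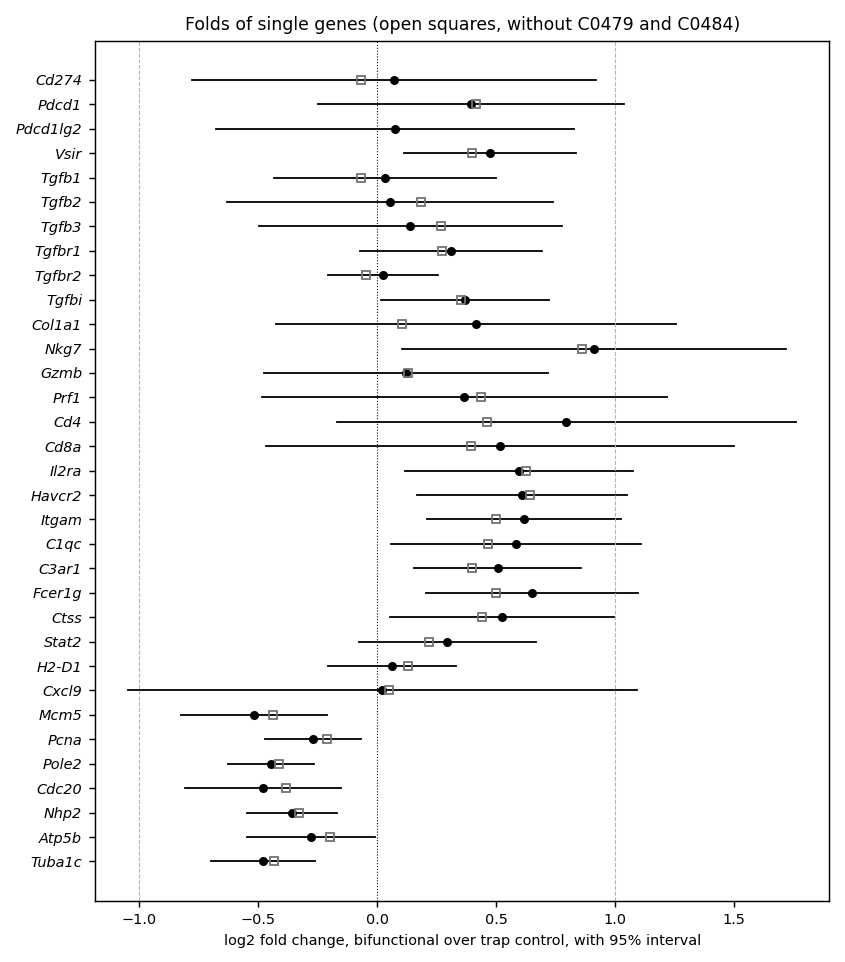
Log2 fold changes of 33 genes, bifunctional over trap control, are drawn as points with 95% intervals, and open squares give the value without C0479 and C0484 where the gene was tested there. Intervals of Tgfbr2, H2-D1 and the replication genes lie within the dashed lines of a 2-fold change, and that of Cxcl9 reaches past both.

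Most cytotoxic and T cell genes had folds above 0, as low-level genes did in general, and the groups overlapped. All 12 cytotoxic effector genes had folds above 0, with a median of 0.35, and 3 of 12 had intervals inside a 2-fold change. Against 5.04% of all genes in that direction, 1 of the 12 met an unadjusted p under 0.05. That gene was Nkg7, a granule protein of killer lymphocytes. It had 0.604, 1.19 and 2.29 CPM in the lowest, median and highest bifunctional library, against 1.19, 0.539, 0.577 and 0.563 CPM in trap control libraries, a fold of 0.91 (0.11 to 1.72, adjusted p = 0.358). Gzmb, the protease granzyme B, ran from 3.42 to 9.47 CPM with a median of 5.26 in bifunctional tumors, against 7.65, 3.10, 5.11 and 4.01 CPM in trap control tumors. Its fold was 0.12 (-0.48 to 0.72), so an addition beyond 1.65-fold lay outside the interval. The pore former Prf1 had a fold of 0.37 (-0.48 to 1.22), and Gzmc, a granzyme whose reads can be shared with its paralogs, one of 0.20 (-0.60 to 1.01). The cytotoxic score differed by 0.20 (-0.35 to 0.74), and by 0.37 without trap control library C0465, the highest of its group.

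Of 15 T cell genes 14 had folds above 0, with a median of 0.41 and a score difference of 0.15 (-0.13 to 0.42). These medians stand beside 0.34 for all genes under 1 CPM and 0.19 for those at 1 to 10 CPM, a reference that the filter does not leave neutral. On log2(TPM + 1), a scale that shrinks the folds of low genes, 12 of the 15 T cell genes and 2 of the 12 cytotoxic genes lay below the median of all genes. The shrinkage pulls low genes towards 0 whatever their change, so these counts cannot decide whether such genes rose more than others. The helper co-receptor Cd4 had a fold of 0.80 (-0.17 to 1.76), or 0.46 without C0479 and C0484. The killer co-receptor Cd8a had a fold of 0.52 (-0.47 to 1.499), which was 1.47 without trap control library C0465 and 0.26 without C0467. Lck, the kinase at the T cell receptor and the most abundant of the list, had a fold of -0.32 (-0.78 to 0.14). The list for NK cells was centred near 0, with 4 of 7 folds above 0 and a score difference of 0.01 (-0.27 to 0.28). Eomes, a transcription factor of NK and memory T cells, had a fold of -0.57 (-1.18 to 0.03). In whole tumors, fewer cells of a type and less RNA per cell cannot be told apart.

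The regulatory T cell score was higher in most bifunctional tumors, without a called member. The score of the 6 genes was above every trap control library in 9 of 10 bifunctional libraries and differed by 0.22 (-0.02 to 0.45). The 2 members at an unadjusted p under 0.05, against 5.04% of all genes in that direction, became 0 without trap control library C0466. On log2(TPM + 1), which shrinks the folds of low genes, the list stood at 0.0037 relative to the median of all genes. On that scale 3 of the 6 lay below this median, and the shrinkage keeps both values from deciding whether the list rose more than other genes. Il2ra, the high-affinity chain of the IL-2 receptor, had 1.73, 2.37 and 3.30 CPM in the lowest, median and highest bifunctional library, against 1.60, 1.26, 1.69 and 2.03 CPM in trap control libraries, a fold of 0.59 (0.12 to 1.07, adjusted p = 0.343). Ikzf2, the factor Helios and the most abundant of the list, had a fold of 0.00 (-0.37 to 0.36). Havcr2, the inhibitory receptor TIM-3 of exhausted T cells and myeloid cells, ranged from 7.61 to 15.4 CPM with a median of 9.81 in bifunctional tumors, against 7.93, 4.81, 6.39 and 9.0 CPM in trap control tumors. Its fold was 0.61 (0.17 to 1.05, adjusted p = 0.324). Havcr2 had the smallest p of 8 inhibitory receptor genes, a separate list. Of these 6 had folds above 0, and their score differed by 0.15 (-0.07 to 0.36). On log2(TPM + 1), with the same shrinkage, 6 of the 8 lay below the median of all genes, so this count cannot decide either. Relative to anti-PD-L1 tumors Havcr2 stood at 0.00 (-0.32 to 0.33) in bifunctional and -0.60 (-1.05 to -0.16) in trap control tumors.

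Macrophage genes had higher levels across the list. All 15 had folds above 0, with a median of 0.51, and 8 of 15 met an unadjusted p under 0.05 against 5.04% of all genes. Itgam, the integrin chain CD11b of myeloid cells (chr7:128062640-128118491), had 116, 193 and 272 CPM in the lowest, median and highest bifunctional library, against 133, 115, 104 and 146 CPM in trap control libraries. Of the 10 bifunctional libraries 8 were above the highest trap control one. The fold was 0.62 (0.21 to 1.02, adjusted p = 0.317). Apoe, the lipid carrier and the most abundant member, had a fold of 0.62 with a wider interval (-0.27 to 1.52), since 1 bifunctional library reached 1475 CPM, and a fold of 0.21 without C0479 and C0484. The list score differed by 0.48 (-0.03 to 0.99), and by 0.32 (-0.10 to 0.75) without C0479 and C0484, which had the highest macrophage scores of all. The count of 8 dropped to 2 without them, and to 1 without trap control library C0467.

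Complement and Fc receptor genes, many of which macrophages express, had folds in the same direction. All 13 complement genes had folds above 0 (median 0.58, or 0.33 without C0479 and C0484). Of these 6 met an unadjusted p under 0.05, against 5.04% of all genes. The count was 4 without C0479 and C0484 and 3 without trap control library C0466. C3ar1, a receptor for a fragment of C3, had 63.8, 96.0 and 129 CPM at its lowest, median and highest in bifunctional tumors, against 76.7, 60.9, 61.6 and 73.4 CPM in trap control tumors, a fold of 0.51 (0.16 to 0.86, adjusted p = 0.317). C1qc, a chain of the initiating C1q complex, had a fold of 0.58 (0.06 to 1.11). Fcer1g, the signalling chain shared by the activating Fc receptors, had 17.1, 26.0 and 43.3 CPM in the lowest, median and highest bifunctional library, against 20.9, 13.7, 16.9 and 18.5 CPM in trap control libraries, a fold of 0.65 (0.20 to 1.10, adjusted p = 0.317). The Fcγ receptor score differed by 0.50 (0.00 to 1.02), by 0.36 (-0.06 to 0.79) without C0479 and C0484, which takes in 0, and by 0.33 without C0466.

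MHC class II genes had folds above 0, and class I genes were centred near 0. All 8 class II genes had folds above 0 (median 0.52), and the score differed by 0.42 (-0.29 to 1.11), by 0.27 without C0479 and C0484, and by 0.17 without trap control library C0466, the lowest of its group. H2-DMa, which loads peptides onto class II, had a fold of 0.52 (0.02 to 1.03), and its reads overlap Brd2 on the other strand. Among the 13 class I genes 7 had folds above 0, and all 13 intervals lay inside a 2-fold change. H2-D1, a class I heavy chain, had 993, 1343 and 1622 CPM in the lowest, median and highest bifunctional library, against 1421, 1389, 1086 and 1354 CPM in trap control libraries, a fold of 0.06 (-0.21 to 0.33).

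Single interferon response genes were mostly bounded more narrowly than T cell genes. Their list scores were not, as both score intervals were wider than that of T cells (-0.13 to 0.42). Of 23 type I interferon response genes 14 had folds above 0 with a median of 0.05, 0 met an unadjusted p under 0.05, and 21 had intervals inside a 2-fold change. The score differed by 0.12 (-0.29 to 0.53), by 0.07 without C0479 and C0484, and by -0.10 without C0466, so its sign rested on that trap control library. Stat2, which carries the type I signal to the nucleus, had a fold of 0.30 (-0.08 to 0.67), and the RNA sensor Ddx58 one of -0.05 (-0.25 to 0.15). Among 16 interferon-γ response genes 14 had folds above 0 with a median of 0.10, and 11 had intervals inside a 2-fold change. Their score differed by 0.21 (-0.31 to 0.74), by -0.05 without C0466 and by 0.50 without C0465. Gbp2, a guanylate-binding protein, had a fold of 0.14 (-0.32 to 0.61). The T cell attractant Cxcl9 had 6.32, 13.5 and 26.2 CPM at its lowest, median and highest in bifunctional tumors, against 30.8, 2.56, 11.1 and 8.40 CPM in trap control tumors. The trap control tumors alone spanned the whole range of the other group, and the fold was 0.02 (-1.04 to 1.09).

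**Figure D3:**
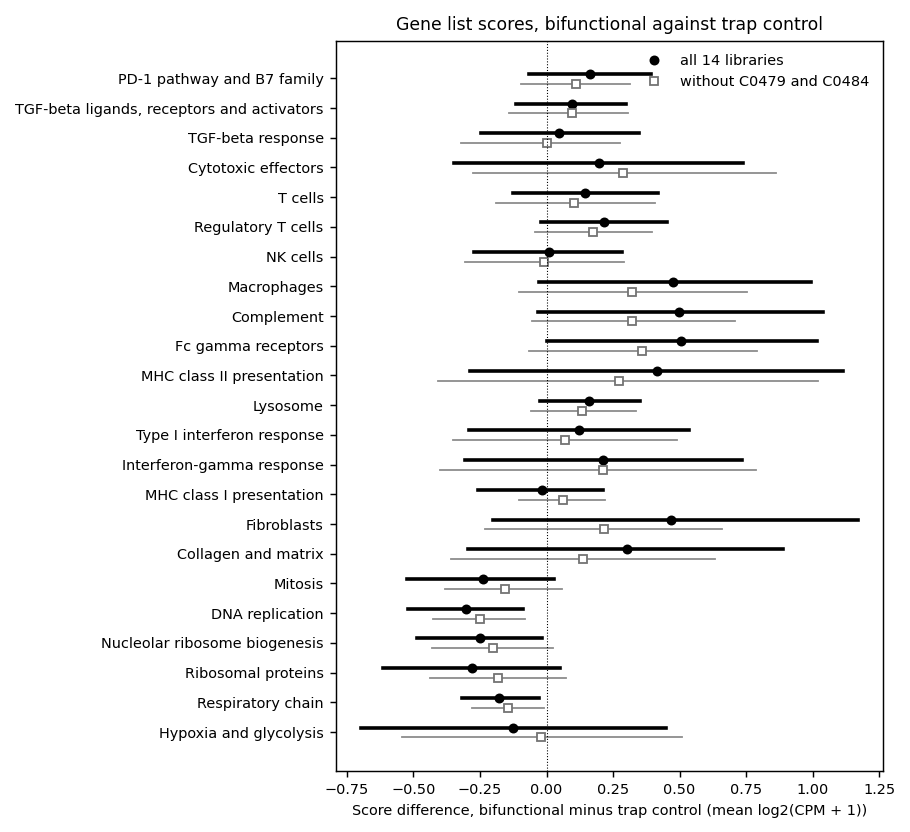
Differences of gene list scores, bifunctional minus trap control in mean log2(CPM + 1), are shown with 95% intervals for all 14 libraries (black) and without C0479 and C0484 (grey). On this scale only DNA replication, nucleolar ribosome biogenesis and the respiratory chain have black intervals that leave out 0, apart from Fcγ receptors, whose interval starts at 0.00. The nucleolar list was made after the results had been seen, so its interval is not a test of a planned list.

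Among the 44 lists, DNA replication was the only one whose score separated the groups fully. All 19 genes had folds below 0, with a median of -0.31, and 16 met an unadjusted p under 0.05 in that direction against 7.56% of all genes. The score was 5.20, 5.62 and 5.76 in the lowest, median and highest bifunctional library, against 5.86, 5.82, 6.10 and 5.79 in trap control libraries. Every bifunctional library lay below every trap control one. The difference was -0.30 (-0.52 to -0.09) over all libraries and -0.25 (-0.43 to -0.08) without C0479 and C0484. The intervals of all 19 genes stayed inside a 2-fold change. The number of genes at an unadjusted p under 0.05 was 12 without C0479 and C0484, but 3 without trap control library C0467, the highest of its group, where the score difference was -0.23. On log2(TPM + 1) 0 of the 19 genes met an unadjusted p under 0.05.

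Mcm5, a subunit of the replicative helicase (chr8:75109569-75128439), had 82.3, 131 and 162 CPM in the lowest, median and highest bifunctional library, against 172, 167, 237 and 160 CPM in trap control libraries. In 9 of 10 bifunctional tumors it was below the lowest trap control tumor, and its fold was -0.52 (-0.82 to -0.21, adjusted p = 0.317). Pole2, the second subunit of DNA polymerase epsilon (chr12:69201773-69228195), separated the groups fully, with 10.9, 12.8 and 14.3 CPM at its lowest, median and highest in bifunctional tumors, against 16.5, 17.7, 19.2 and 16.1 CPM in trap control tumors. Its fold was -0.44 (-0.62 to -0.26, adjusted p = 0.317). Pcna, the sliding clamp and the most abundant member, had 130, 164 and 200 CPM in the lowest, median and highest bifunctional library, against 204, 216, 195 and 177 CPM in trap control libraries, a fold of -0.27 (-0.47 to -0.07).

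The promoters of these genes were read because S-phase genes are classically controlled by E2F factors. Sequences came from RefSeq on GRCm38.p6, as the 250 bases before a gene's start, and 15 of the 19 genes had one. The letters TTTCCCGC, TTTCGCGC, TTTGCCGC and TTTGGCGC, which can overlap on opposite strands, were sought on both strands. At least 1 was present in 5 of the 15 (33.3%), against 583 of 27025 genes with a promoter (2.16%). The 5 were Cdc6, Mcm5, Mcm6, Mcm7 and Pola1. Since the list holds S-phase genes, this excess describes the list and says nothing of the treatments. The same letters were in 1 of 16 mitosis, 1 of 10 macrophage, 0 of 7 complement and 0 of 5 Fcγ receptor promoters. PU.1-type letters, GAGGAAGT, were in 1 of 10 macrophage, 1 of 7 complement and 1 of 5 Fcγ receptor promoters. They were in 0 of 15 replication and 1 of 16 mitosis promoters, and in 2.79% of all. The promoters of the helicase subunits Mcm5 and Mcm6 and of the helicase loader Cdc6 are shown, with matches in capitals, from chr8:75109259-75109508 on the plus strand, chr1:128359706-128359955 on the minus strand and chr11:98907901-98908150 on the plus strand.
Mcm5: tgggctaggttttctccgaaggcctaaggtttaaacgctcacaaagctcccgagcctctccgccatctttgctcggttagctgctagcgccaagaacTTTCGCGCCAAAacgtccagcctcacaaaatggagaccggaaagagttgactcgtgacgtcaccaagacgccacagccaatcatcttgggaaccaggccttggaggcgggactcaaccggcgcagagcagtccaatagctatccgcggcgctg
Mcm6: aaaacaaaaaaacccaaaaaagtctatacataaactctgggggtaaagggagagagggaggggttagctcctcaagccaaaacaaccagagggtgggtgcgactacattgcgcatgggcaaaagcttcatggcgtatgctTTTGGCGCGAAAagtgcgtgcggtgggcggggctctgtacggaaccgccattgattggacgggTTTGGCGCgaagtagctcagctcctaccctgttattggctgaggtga
Cdc6: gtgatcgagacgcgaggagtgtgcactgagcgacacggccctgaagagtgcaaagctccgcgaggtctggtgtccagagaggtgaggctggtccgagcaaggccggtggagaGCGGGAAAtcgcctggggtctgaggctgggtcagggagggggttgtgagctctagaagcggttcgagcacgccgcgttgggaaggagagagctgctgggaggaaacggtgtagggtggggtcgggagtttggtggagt
The runs in Mcm5 and in the first site of Mcm6 hold overlapping matches on opposite strands. A match describes these letters and says nothing of binding. Mcm6 itself had 68.7, 101 and 118 CPM in the lowest, median and highest bifunctional library, against 123, 117, 150 and 117 CPM in trap control libraries, a fold of -0.33 (-0.57 to -0.09).

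**Figure D4:**
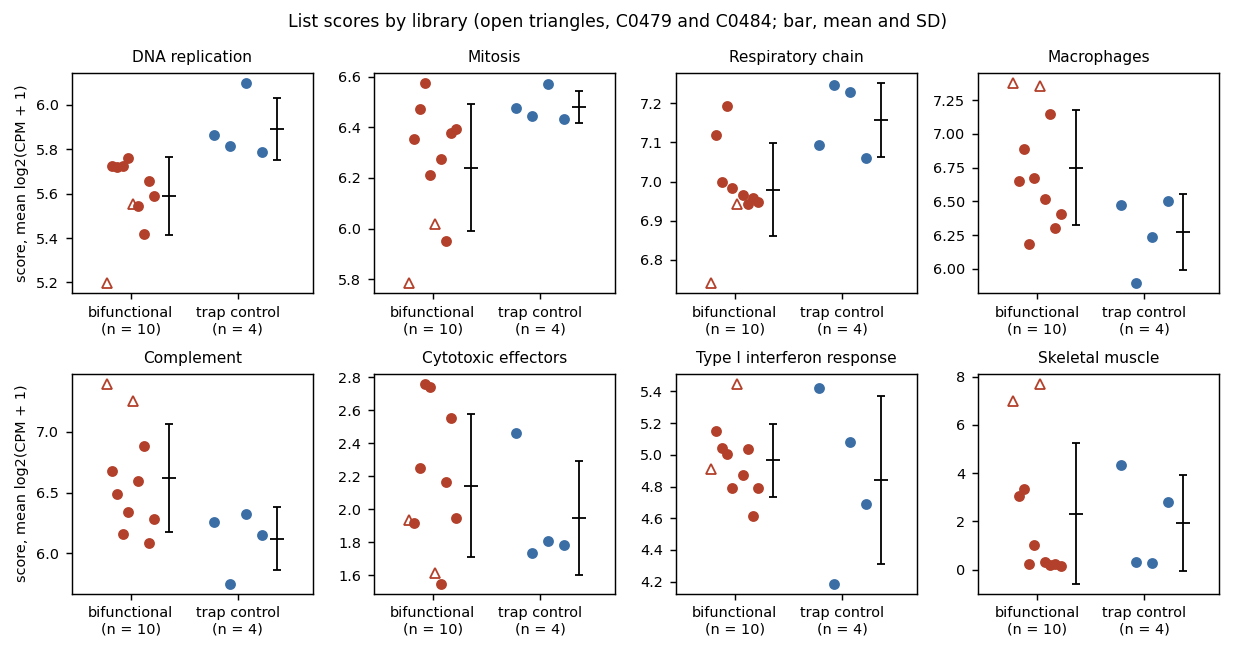
Each point is the score of 1 library, the mean log2(CPM + 1) of a list, for 10 bifunctional (left) and 4 trap control tumors (right), with the mean and SD. For DNA replication all bifunctional points are below the trap control ones, for macrophages the groups overlap, and C0479 and C0484 (open triangles) stand out in skeletal muscle.

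Genes of mitosis leaned the same way with more overlap. Of 21, 20 had folds below 0 (median -0.25), and the score differed by -0.24 (-0.52 to 0.03), or by -0.16 without C0479 and C0484. Cdc20, an activator of the anaphase-promoting complex, had 67.5, 106 and 137 CPM at its lowest, median and highest in bifunctional tumors, against 127, 136, 183 and 132 CPM in trap control tumors, a fold of -0.48 (-0.80 to -0.15, adjusted p = 0.317). Top2a, the topoisomerase of dividing cells, had a fold of -0.20 (-0.50 to 0.10). The number of these genes at an unadjusted p under 0.05 was 5, against 7.56% of all genes in that direction. With 1 library left out it ran from 1 without trap control library C0467 to 12 without bifunctional library C0482, and on log2(TPM + 1) it was 0.

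Ribosomal and mitochondrial energy genes had folds below 0 as well. All 16 ribosomal protein genes had folds below 0 (median -0.26), with a score difference of -0.28 (-0.61 to 0.05), -0.18 without C0479 and C0484, and -0.16 without trap control library C0466. Rps4x, the most abundant, had a fold of -0.20 (-0.62 to 0.22), and Rps2, whose many processed copies can share its reads, one of -0.55 (-0.90 to -0.19). All 14 respiratory chain genes had folds below 0 (median -0.17), although their median on log2(TPM + 1) was 0.03. The score differed by -0.18 (-0.32 to -0.03), or -0.14 (-0.28 to -0.01) without C0479 and C0484. Ndufv1, a core subunit of complex I, had a fold of -0.22 (-0.38 to -0.06), or 0.00 on log2(TPM + 1), and Atp5b, the catalytic subunit of ATP synthase, one of -0.28 (-0.55 to -0.01). At an unadjusted p under 0.05 there were 7 respiratory chain genes, against 7.56% of all genes in that direction. The 7 became 1 without C0466 and 0 on log2(TPM + 1).

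Among 25 genes of nucleolar ribosome assembly, a list made after the results had been seen, 22 had folds below 0 (median -0.26). Of the 25, 12 met an unadjusted p under 0.05, against 7.56% of all genes in that direction. The count was 6 without C0467 and 0 on log2(TPM + 1). The score differed by -0.25 (-0.49 to -0.02), and by -0.20 (-0.43 to 0.03) without C0479 and C0484, which takes in 0. Nhp2, a protein of the box H/ACA particles that guide RNA modification, had 36.7, 43.8 and 49.3 CPM in the lowest, median and highest bifunctional library, against 53.9, 52.3, 65.8 and 52.5 CPM in trap control libraries, without overlap. Its fold was -0.36 (-0.55 to -0.17), with an adjusted p of 0.317 in edgeR and 0.0457 in DESeq2. Tbl3, a part of the small-subunit processome, had 30.7, 45.1 and 52.8 CPM at its lowest, median and highest in bifunctional tumors, against 59.1, 62.3, 69.4 and 59.1 CPM in trap control tumors, a fold of -0.52 (-0.75 to -0.28).

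These lower values depend on the scaling, and which scale has the right zero point was not tested. Taking off the median of all genes centres all genes at 0 by construction. On log2(TPM + 1) 84.3% of all genes had folds above 0, and the median over all genes was 0.12. Relative to it the median was -0.22 for DNA replication, -0.17 for mitosis, -0.17 for ribosomal proteins, -0.17 for nucleolar assembly and -0.09 for the respiratory chain, while without that reference the respiratory chain median turned to 0.03. Macrophage genes stood at 0.48 and complement genes at 0.49 relative to the same median. With all 10 trap control libraries in place of the 4, the score difference turned direction for 4 of these lists, to 0.028 for DNA replication, 0.0047 for mitosis, 0.065 for ribosomal proteins and 0.20 for the respiratory chain, and came to -0.024 for nucleolar assembly. Epithelial, mesenchymal and myeloid markers had the following values. Krt8 had 219, 421 and 502 CPM in the lowest, median and highest bifunctional library against 557, 654, 586 and 443 CPM in trap control libraries, a fold of -0.52 (-0.94 to -0.10). Krt18, another keratin, had a median of 8.87 TPM in bifunctional and 12.7 TPM in trap control tumors. Epcam, an epithelial adhesion molecule, had a median of 1.92 TPM in bifunctional and 0.885 TPM in trap control tumors. The median of vimentin was 775 TPM in bifunctional and 774 TPM in trap control tumors. Of 13 epithelial and mesenchymal genes 9 had folds above 0 (median 0.27), and the macrophage score differed by 0.48. Their part in the result was not tested.

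Single genes with the smallest p-values gave differences of modest size with little overlap. Ppp4r1l-ps, a transcribed pseudogene of a phosphatase subunit (chr2:173579320-173659640), was first. It had 7.06, 8.34 and 9.67 CPM in the lowest, median and highest bifunctional library, against 5.78, 5.44, 4.91 and 5.55 CPM in trap control libraries, a fold of 0.64 (0.43 to 0.86, adjusted p = 0.212). It was also the 1 gene called when the 10 anti-PD-L1 libraries entered the fit. Ankrd12, an ankyrin repeat protein that binds nuclear receptor coactivators, had a fold of 0.49 (0.24 to 0.73), Pcmtd2 one of 0.44 (0.21 to 0.68), Tanc2 one of 0.52 (0.25 to 0.80), Ddrgk1, an ER protein of the UFM1 pathway, one of 0.32 (0.15 to 0.50) and AI429214 one of 0.63 (0.31 to 0.95).

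On the lower side Tuba1c, an α-tubulin, had 229, 261 and 356 CPM in the lowest, median and highest bifunctional library, against 367, 393, 408 and 338 CPM in trap control libraries, a fold of -0.48 (-0.70 to -0.26, adjusted p = 0.317). It passed DESeq2's test with an adjusted p of 0.0139. Thop1, a peptidase, had a fold of -0.47 (-0.68 to -0.26) and Gtf2f2, a subunit of the general factor TFIIF, one of -0.48 (-0.70 to -0.27).

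The genes that DESeq2 called were mostly lower. The 53 that fell by its test included Timm23, the channel of the inner mitochondrial membrane, at -0.43, and the arginine methyltransferase Prmt5 at -0.50, together with Nhp2, Tbl3 and Tuba1c. The 12 that rose by it included Ankrd12, Pcmtd2, Tanc2, Ddrgk1, the amyloid precursor gene App at 0.29 and Dhrs3, a retinaldehyde reductase, at 0.72. On log2(TPM + 1) 50 of the 53 had folds below 0, all 53 lay below the median of all genes, and 0 of the 12 had a fold below 0. On that scale 84.3% of all genes had folds above 0. The 53 and the 12 were picked by direction in the same libraries, so these counts are no separate support for the calls.

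**Figure D5:**
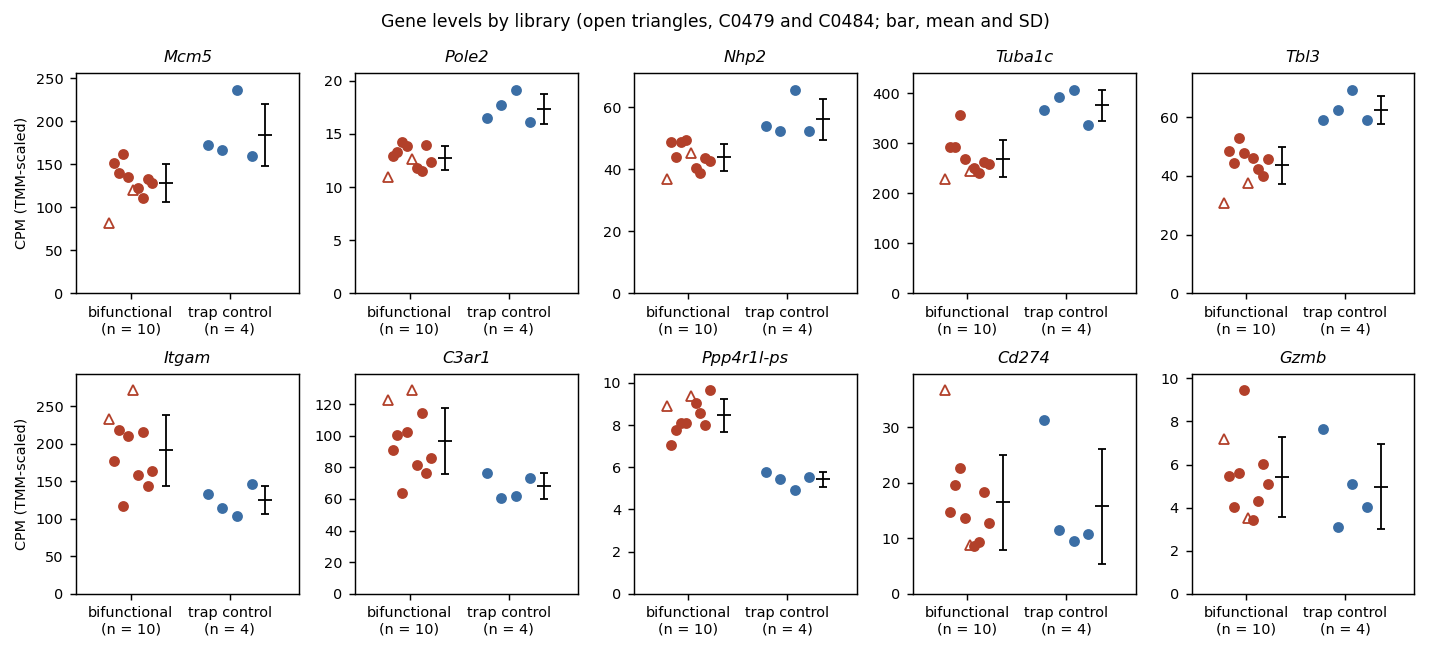
TMM-scaled CPM of 10 genes is shown for each library, bifunctional on the left and trap control on the right, with the mean and SD and with C0479 and C0484 as open triangles. Pole2, Nhp2, Tbl3 and Ppp4r1l-ps separate the groups, while Cd274 and Gzmb overlap, with the trap control tumor C0465 far above the rest of its group in Cd274.

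Both molecules were also set against anti-PD-L1 alone in a fit of 24 libraries, in which the comparisons share libraries with each other. Bifunctional against anti-PD-L1 gave 4014 called genes of 15704 (25.6%), and trap control against anti-PD-L1 gave 2 (0.0127%), with 4 libraries in place of 10. The 2 were Gzmb and Il2rb, a chain of the IL-2 and IL-15 receptors. Gzmb was higher by 2.00 on the log2 scale (1.46 to 2.53) in bifunctional tumors and by 1.88 (1.23 to 2.52) in trap control tumors than under anti-PD-L1. Il2rb was higher by 1.40 (1.09 to 1.72) with the bifunctional molecule and by 1.12 (0.72 to 1.51) with the trap control. The median fold of the cytotoxic genes over anti-PD-L1 tumors was 1.89 in bifunctional and 1.61 in trap control tumors. That of the T cell genes was 1.16 in bifunctional and 0.82 in trap control tumors, and that of the type I interferon genes was 0.59 in bifunctional and 0.42 in trap control tumors. For macrophage genes it was 0.54 with the bifunctional molecule and 0.03 with the trap control. For DNA replication genes it was -0.35 with the bifunctional molecule and -0.04 with the trap control. Mcm5 stood at -0.47 (-0.67 to -0.27) in bifunctional and 0.05 (-0.22 to 0.32) in trap control tumors relative to anti-PD-L1.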

How the data were processed

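Whole-tumor RNA was sequenced after ribosomal depletion with random priming, per the labels' protocols. The authors deposited expected counts and TPM for 39012 genes, made with RSEM 1.2.31 and Bowtie2 2.3.1 on mm10, per the submitters' processing notes, which give no roles. The annotation and strand of counting are not given in the sources used here. TPM divides by transcript length, per the authors' deposited unit. Of the expected count values 14.0% were not whole, and all were rounded. Symbols from GENCODE M21 matched 96.6% of IDs. No pair of libraries in a group was a duplicate (smallest chi-square per degree of freedom 24.7).

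The 14 libraries were fitted with edgeR 4.0.16 in R 4.3.3 (TMM, default filter, two-sided quasi-likelihood F test, Benjamini-Hochberg adjustment, threshold 0.05). A run on simulated counts used larger folds than nearly all reported here, left low-level genes unchanged and capped the spread between libraries. It does not show how the fit does on small folds or low genes. Intervals of 95% are the coefficient plus or minus its SE times the t quantile. CPM values are TMM-scaled, and summed CPM divides by the total count. Score intervals invert the exact permutation test over the 1001 splits of 14 libraries. DESeq2 1.42.0, limma 3.58.1 and Python 3.11.15 were also used.

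Libraries, comparisons, 42 lists (523 entries, of which 3 were not in the table) and 2 further lists (nucleolar assembly, lysosome) were chosen with earlier results of these data known, the 2 after these results. Genes named were the 6 smallest p-values in each direction, the targets, and each list's member with the smallest p and with the highest level. Not all of them are described, and Gzmb, Prf1, Il2rb, Cd8a, C1qc, Cxcl9, Mcm6, Cdc6 and genes called by DESeq2 were added with their values known. Alternatives tried were other size factors, filters, tools, TPM scales, library sets, host tissue covariates, structural RNAs left out and each library left out.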

Additional observations from a re-analysis of the deposited data

Results flagged for a closer look

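Across 224 groups of libraries (lists and genes, each in the bifunctional and trap control group) 16 held a library far from the rest of its group, and chance gives about 1 in 20. The trap control tumor C0465 was high in most of those from its group. Its cytotoxic score was 2.46 (others 1.74 to 1.81), its T cell score 1.21 (0.790 to 0.809), its myeloid chemokine score 4.59 (4.20 to 4.26) and its metalloprotease score 5.85 (4.97 to 5.09), each as mean log2(CPM + 1). On log2(CPM + 1) it had 5.01 for Cd274 (3.40 to 3.63), 1.13 for Nkg7 (0.622 to 0.658) and 1.41 for Cd8a (0.366 to 0.490). The trap control tumor C0466 had a ribosomal protein score of 8.41 (7.93 to 7.96), 10.8 for Rps4x (10.1 to 10.1) and 5.25 for Tgfbr1 (5.56 to 5.58). The trap control tumor C0467 had 6.06 for Nhp2 (5.74 to 5.78).

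Among bifunctional tumors C0483 was low, with a score of 5.78 for TGF-β ligands, receptors and activators (others 6.09 to 6.37) and of 5.65 for the TGF-β response (6.24 to 6.63). C0479 had a keratinocyte score of 7.96 (1.12 to 3.40) with 8.89 for Krt5 (0.122 to 4.09), and 6.12 for Mcm6 (6.58 to 6.90).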

How the results depend on the processing

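The 0 called genes of edgeR's quasi-likelihood fit stayed at 0 under every other setting run on these 14 libraries except DESeq2's Wald test, which called 65. The fit of 24 libraries called 1 gene. Putting all 10 trap control libraries in place of the 4 called 2890 and gave 2497 higher and 2939 lower genes at an unadjusted p under 0.05. That set brings in 6 libraries with more structural RNA, and the cause of the difference was not tested. Genes higher at an unadjusted p under 0.05 numbered 1409 in the 40-library fit with the set as a term and 1199 on log2(TPM + 0.1). Genes lower numbered 57 on log2(TPM + 0.1) and 55 on log2(TPM + 1); those scales set the all-gene median at 0.21 and 0.12. With 1 library left out, genes higher ran from 422 (without C0466) to 1274 (without C0482), and without C0467 came to 58.2% of the 780. Genes lower ran from 538 (without C0467) to 1625 (without C0482), and were 713 without C0466. For trap control against anti-PD-L1 the 2 calls became 4 by DESeq2, 0 with only the 14 libraries of those groups, and 0 to 2 with a trap control library left out.

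Of 920 list score differences recomputed over 44 lists, 896 shifted by under 1 SD between libraries. With all 10 trap control libraries the difference was 1.01 for complement, 0.0047 for mitosis, 0.028 for DNA replication, 0.065 for ribosomal proteins, 0.20 for the respiratory chain and -0.024 for nucleolar assembly, of which all but complement and nucleolar assembly turned direction. On log2(TPM + 1) it was 0.19 for MHC class I, -0.11 for DNA replication, -0.031 for nucleolar assembly and 0.031, a turned direction, for the respiratory chain. The median over members gave -0.13 for DNA replication.

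Of 1828 gene folds recomputed for 68 genes, 75 changed sign. With all 10 trap control libraries they were -0.23 for Ankrd12, 0.18 for Atp5b, 0.14 for Ddx58, 0.044 for Lck, 0.14 for Mcm6, 0.029 for Ndufv1, 0.10 for Nhp2, 0.16 for Pcna, -0.27 for Ppp4r1l-ps, 0.34 for Rps4x, -0.835 for Tgfb1, -0.32 for Tgfb2, 0.025 for Timm23, 0.14 for Top2a and 0.14 for Tuba1c. Without C0479 and C0484 they were -0.066 for Cd274, -0.068 for Tgfb1, -0.048 for Tgfbr2 and 0.090 for Thbs1. With voom they were 0.10 for Ikzf2, -0.061 for Tgfb1, -0.027 for Tgfb2 and -0.052 for Tgfbr2, and with host tissue covariates -0.044 for Pdcd1lg2 and -0.011 for Tgfbr2. On log2(TPM + 1) they were 0.16 for Ddx58, 0.11 for Ikzf2, 0.0027 for Ndufv1 and 0.023 for Thbs1, and on log2(TPM + 0.1) 0.18 for Ddx58, 0.20 for Ikzf2, 0.0024 for Ndufv1 and 0.021 for Thbs1. Ikzf2 also stood at 0.019 in the 40-library fit, 0.0025 by DESeq2, 0.0026 with its size factors and 0.012 with a minimum mean of 1 CPM. With 1 library left out the folds ran from -0.14 to 0.64 for Cd274, -0.12 to 0.29 for Pdcd1lg2, -0.12 to 0.22 for Tgfb1, -0.082 to 0.27 for Tgfb2, -0.025 to 0.32 for Tgfb3, -0.012 to 0.056 for Tgfbr2, -0.14 to 0.053 for Thbs1, -0.050 to 0.41 for Gzmb, -0.14 to 0.13 for Ikzf2, -0.020 to 0.11 for H2-D1 and -0.32 to 0.86 for Cxcl9. The reported intervals of these 11 genes hold 0.

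No paired analysis was possible because the labels give the groups no shared replicate numbers. Only 4 trap control tumors entered, so the spread of that group rests on few libraries, and genes under 1 CPM cannot show differences short of about their half-width of 0.94.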

Other observations

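Lysosomal genes, a list made after the results had been seen, mostly had folds above 0. Of 24, 21 had folds above 0, all 24 intervals lay inside a 2-fold change, and the score differed by 0.16 (-0.03 to 0.35). Ctss, a cathepsin of antigen-presenting cells, had 180, 280 and 396 CPM in the lowest, median and highest bifunctional library, against 235, 150, 171 and 228 CPM in trap control libraries, a fold of 0.53 (0.05 to 1.00). Ctsb, the most abundant cathepsin of the list, had a fold of 0.11 (-0.16 to 0.38). At an unadjusted p under 0.05 there were 4 members, against 5.04% of all genes in that direction. The count became 0 without C0479 and C0484 and 13 on log2(TPM + 1).

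Hypoxia and glycolysis genes had a median fold of -0.09, with 14 of 16 intervals inside a 2-fold change. Fscn1, an actin bundler of mature dendritic cells and of tumor cells, had a fold of -0.28 (-0.53 to -0.04, adjusted p = 0.354), with 184, 229 and 290 CPM in the lowest, median and highest bifunctional library, against 256, 273, 302 and 285 CPM in trap control libraries. Across 13537 genes with at least 1 CPM, Spearman's rho of the fold was 0.17 against transcript length and -0.01 against GC content. This is a description across genes, which are not replicates and share libraries.

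The other immune and stromal lists had medians nearer 0 or wide score intervals. Of 11 dendritic cell genes 9 had folds above 0 (median 0.37), with a score difference of 0.14 (-0.18 to 0.47), but a median of 0.038 and a score difference of 0.045 without C0479 and C0484. Of 13 endothelial genes 11 had folds above 0 (median 0.19), with a score difference of 0.18 (-0.44 to 0.82). Without C0479 and C0484 their direction turned, with a median of -0.060 and a score difference of -0.015, and without C0466 the score difference was -0.031. Myeloid chemokines and growth factors differed by -0.14 (-0.72 to 0.46), inflammatory cytokines by -0.07 (-0.50 to 0.35), neutrophil genes by -0.13 (-0.85 to 0.62), metalloproteases and their inhibitors by -0.01 (-0.48 to 0.44) and immediate early genes by 0.04 (-0.50 to 0.59). Without C0479 and C0484 the difference was -0.31 for myeloid chemokines and growth factors, -0.13 for inflammatory cytokines and -0.28 for neutrophil genes.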
